A study of Mus musculus with 6 samples.

Results

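The SLC25 family is the set of mitochondrial carriers, read here as the genes whose symbol starts with Slc25a in the deposited table of mouse microglia. It had 43 members among 26096 genes, and 38 of them passed a minimum of 10 normalized counts in at least 3 libraries, as did 15597 genes in all. RNA was sequenced from wild-type (WT) microglia given medium conditioned by ferroptotic bone marrow-derived macrophages (BMDMs; FeM CM, 3 libraries), and from WT microglia given medium of normal BMDMs (C CM, 3 libraries). Ferroptosis is an iron-dependent cell death driven by lipid peroxides. The comparison asks how medium from dying macrophages alters gene expression in microglia. The sources used here do not give how ferroptosis was induced, how long the medium was applied or where the microglia came from.

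Each SLC25 protein spans its membrane as a bundle of helices built from repeats of a shared motif, and moves a substrate by switching between a state open to the cytosol and a state open to the matrix. Most sit in the inner mitochondrial membrane and exchange the fuels, nucleotides, amino acids, cofactors and metals that the matrix uses or makes. In macrophages and microglia such exchange feeds respiration, the malate-aspartate shuttle, citrate export for lipid synthesis and the supply of iron for haem and iron-sulfur clusters. Slc25a17, a peroxisomal carrier, and Slc25a46, an outer membrane protein that takes part in mitochondrial fission, belong to the family by sequence but not to the inner membrane.

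With ferroptotic medium, 14 of the 38 carriers changed at an adjusted p under 0.05 (36.8%, against 42.5% of all 15597 genes), by limma with Benjamini-Hochberg adjustment over those genes. The largest rises were in the pyrimidine nucleotide carrier Slc25a33, the iron carrier Slc25a37 (mitoferrin 1) and the carnitine carrier Slc25a20. The largest falls were in the dicarboxylate carrier Slc25a10, the ornithine carrier Slc25a15, the glutamate carrier Slc25a22 and the folate carrier Slc25a32. The 3 most abundant carriers, the ADP/ATP carriers Slc25a5 and Slc25a4 and the phosphate carrier Slc25a3, fell by smaller amounts. In all, 6 carriers rose (15.8%, against 19.7% of all genes) and 8 fell (21.1%, against 22.8%). Of the changed carriers, 7 had a log2 fold change of at least 0.5 in size (18.4%, against 20.3%), 3 of them higher and 4 lower. The libraries of the media did not overlap for 17 of 38 carriers (44.7%, against 53.7%). The shares of carriers called were thus near or below those of all genes. Counts given below by substrate class or partner list rest on few genes and are to be read beside the same shares of all genes. The median log2 fold change was -0.02 over the carriers and -0.01 over all genes. The median size of the change, whatever its sign, was 0.15 for the carriers and 0.29 for all genes.

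The libraries held 40328420, 41953603 and 39624311 reads with ferroptotic medium and 43419446, 50557794 and 43829217 with control medium, as worked out from the deposited values, and these may be estimated counts. Across genes, log2 values correlated at 0.980 or more within a medium and at 0.962 to 0.967 between media. The labels do not say whether replicates were separate cultures, and the spread that p-values rest on may therefore be technical. Of 10 microglia markers listed, 8 had a row, of which Csf1r was lower, while P2ry12, Tmem119, Fcrls and Gpr34 had 3, 21, 5 and 5 reads over the 6 libraries, near 0. The summed level of that list was 60680 to 62300 normalized counts with ferroptotic medium and 77810 to 81150 with control medium. Of 8 general myeloid markers, 3 were higher and 1 lower, with sums of 335800 to 341500 in ferroptotic medium and 311100 to 318400 in control medium. Of 5 monocyte and macrophage markers, 2 were higher, with sums of 118100 to 122100 in ferroptotic medium and 86380 to 88050 in control medium. The 5 oligodendrocyte markers had 4 rows, of which 1 was higher and 2 were lower, with sums of 6036 to 6238 in ferroptotic medium and 8561 to 9058 in control medium. In ferroptotic medium astrocyte markers summed to 97.5 to 127.6, neuron markers to 55.3 to 69.6 and fibroblast markers to 44.0 to 74.2. In control medium astrocyte markers summed to 141 to 169, neuron markers to 5.88 to 16.6 and fibroblast markers to 9.79 to 11.8. Several of these sums rested mostly on a single gene, given here as means in ferroptotic and control medium. Csf1r averaged 58590 and 76240 in the microglia list, and Lyz2 229200 and 207300 in the myeloid list. Cd14 averaged 117400 and 84980 in the monocyte and macrophage list, and Mbp 4101 and 6608 in the oligodendrocyte list. Tubb3 averaged 61.3 and 4.99 in the neuron list, where it was the 1 gene tested and was called higher. Map2 of that list averaged 1.02 and 5.60, below the minimum. Dcn averaged 40.4 and 8.49 in the fibroblast list, and was the 1 gene tested there and called higher. In the astrocyte list Aldh1l1, at 79.9 and 124, was lower, while Gfap, at 28.1 and 28.4, was not called. The part of any of these marker differences in the carriers' differences was not tested, and in bulk RNA fewer cells of a type and less RNA per cell cannot be told apart.

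**Figure D1:**
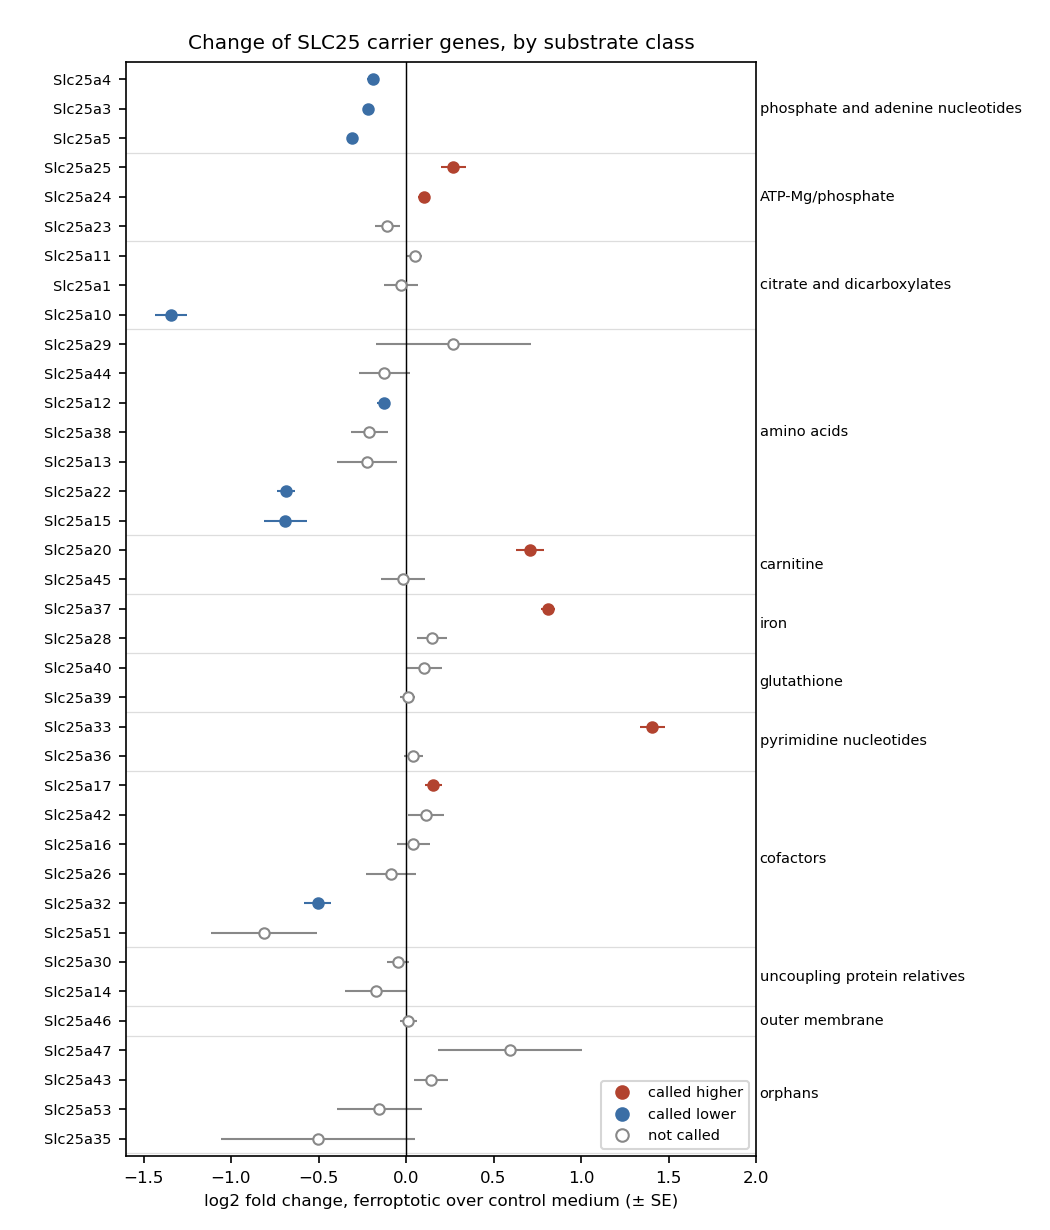
Log2 fold change (ferroptotic over control medium) with the limma standard error for tested carriers, grouped by substrate; filled points passed an adjusted p of 0.05, red higher and blue lower, and open points did not. Slc25a33 stands at 1.41 and Slc25a10 at -1.34, and most open points lie close to 0.

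The adenine nucleotide and phosphate carriers supply the ATP synthase with ADP and phosphate and hand its ATP to the cytosol. Levels between genes are compared here as normalized counts per kilobase of exon, averaged over the 6 libraries. The length is that of all annotated exons of a gene merged, whether or not these cells use them. It was 1646 bases for Slc25a5, 2353 for Slc25a4 and 5550 for Slc25a3. Slc25a3 had more normalized counts than Slc25a4, so the order of these genes depends on the length used. On that scale Slc25a5 led the family at 13213, 4.61 times the level of Slc25a4 at 2863, and Slc25a3 (2751), Slc25a11 (2686) and Slc25a39 (2301) followed. The median of the tested carriers was 342, and the lowest was Slc25a29 at 6.56.

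Slc25a5 (ENSMUSG00000016319, chromosome X), the widespread ADP/ATP carrier, had 19219, 19743 and 19297 normalized counts with ferroptotic medium, and 23899, 23978 and 24355 with control medium. All 3 libraries of ferroptotic medium were below all 3 controls. Its log2 fold change, taken as everywhere here on log2(normalized count + 1), was -0.31 (SE 0.03; limma adjusted p = 2.14e-05). Slc25a4 (ENSMUSG00000031633, chromosome 8), the ADP/ATP carrier best known from heart and muscle, had 6236, 6332 and 6306 normalized counts with ferroptotic medium, against 7180, 7134 and 7237 with control medium. The groups did not overlap, and Slc25a4 fell by 0.19 on the log2 scale (SE 0.03; limma adjusted p = 0.00112). Slc25a3 (ENSMUSG00000061904, chromosome 10), which brings in phosphate and, in an alternative splice form, copper, had 13957, 14081 and 14328 normalized counts with ferroptotic medium, against 16421, 16013 and 16809 with control medium. It too was lower in every library of ferroptotic medium (log2 fold change -0.22, SE 0.03; limma adjusted p = 0.000450).

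These 3 genes took 36.7%, 37.6% and 37.0% of the family's summed normalized counts with ferroptotic medium and 42.7%, 41.6% and 41.8% with control medium, and the ranges did not overlap. The family as a whole took 0.2503%, 0.2491% and 0.2460% of all normalized counts with ferroptotic medium, against 0.2616%, 0.2666% and 0.2699% with control medium. The groups again did not overlap, but this sum includes the 3 genes above. The median log2 fold change over the tested carriers was -0.02, so the lower share does not stand for a general fall of carriers. Slc25a5-ps, a processed pseudogene of Slc25a5 on chromosome 14, held 24 reads in all 6 libraries, below the minimum; the sources used here do not give how reads were shared between near-identical copies.

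The ATP-Mg/phosphate carriers set the total adenine nucleotide pool of the matrix and are switched on by calcium. Of the 3 tested, 2 rose, and 0 did without control replicate 3 or without ferroptotic replicate 3. Slc25a25 had 2213, 1908 and 2202 normalized counts with ferroptotic medium, against 1727, 1836 and 1674 with control medium, with no overlap (log2 fold change 0.27, SE 0.07; limma adjusted p = 0.0146). It lost its call without control replicate 3 or ferroptotic replicate 3, where the limma adjusted p was 0.0519 and 0.0516. It shares 379 exon bases with Naif1 on the other strand, which averaged 727 and 780 normalized counts in ferroptotic and control medium. Slc25a24 rose by 0.10 (SE 0.04; limma adjusted p = 0.0432), with 5951 ± 100.3 normalized counts in ferroptotic medium and 5538 ± 124 in control medium (SD, n = 3 each), but its adjusted p was 0.0599 to 0.135 in 5 of the 6 fits that left out a library, all but that without ferroptotic replicate 1. Slc25a23 was not called (-0.11, SE 0.07). Slc25a54, a relative of these carriers, held 0 reads with ferroptotic medium and 5 with control medium, below the minimum.

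Among carriers of citrate and dicarboxylates, Slc25a10 was the only 1 of 3 that changed. Slc25a10 (ENSMUSG00000025792, chromosome 11) moves malate and succinate out of the matrix in exchange for phosphate or sulfur compounds. It had 1071, 874 and 876 normalized counts with ferroptotic medium, against 2481, 2428 and 2228 with control medium. The highest library of ferroptotic medium was below the lowest control by more than a factor of 2. Its log2 fold change was -1.34 (SE 0.09; limma adjusted p = 5.19e-06), a fold of 0.394. In the authors' deposited table its FPKM was 6.39, 5.22 and 5.14 with ferroptotic medium, against 15.0, 14.7 and 13.4 with control medium. It shares 228 exon bases with Gm11788 on the other strand, a gene at 4.30 normalized counts in ferroptotic medium and 0 in control medium.

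Slc25a11, the oxoglutarate carrier of the malate-aspartate shuttle and a close relative of Slc25a10, had 5801, 5492 and 6091 normalized counts with ferroptotic medium, against 5646, 5535 and 5598 with control medium. The groups overlapped (log2 fold change 0.05, SE 0.04; limma adjusted p = 0.405). Slc25a1, which exports citrate for fatty acid and sterol synthesis, had 3201 ± 196 and 3277 ± 441 normalized counts in ferroptotic and control medium (SD, n = 3 each), with a log2 fold change of -0.03 (SE 0.10). Of 10 genes of the citrate cycle and its cytosolic branch, 1 was higher and 7 were lower, and the median log2 fold change was -0.21. The malic enzyme Me1, which turns malate into pyruvate in the cytosol, was at 0.87, and Ogdh and Idh2 of the cycle at -0.40 and -0.50. Of 4 malate-aspartate enzymes, Got1 in the cytosol (0.26) was higher, and its mitochondrial partner Got2 (-0.40) and Mdh2 (-0.14) were lower. Mdh2 lost its call with the replicate block and in 5 of the 6 fits that left out a library, all but that without ferroptotic replicate 1 (limma adjusted p 0.0531 to 0.116). Gpd2 of the glycerol phosphate shuttle was lower (-0.27), and the other of the 2 genes, Gpd1, was not called (-0.58, SE 0.48).

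**Figure D2:**
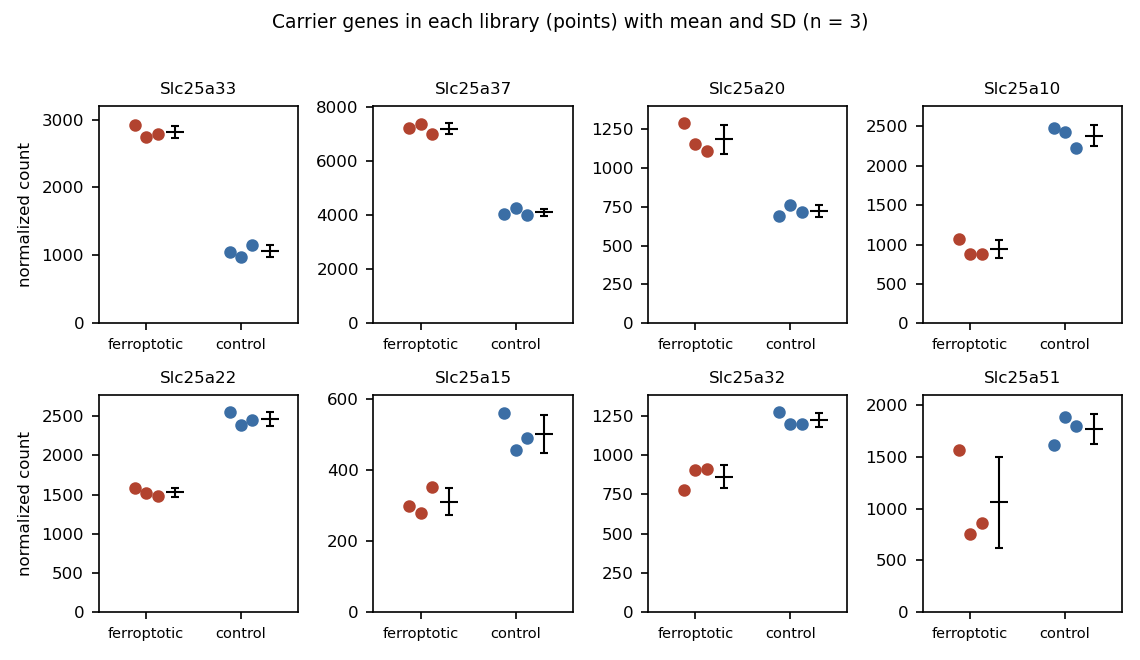
Normalized counts of 8 carriers in each library (points, ferroptotic medium in red and control medium in blue) with the mean and SD of 3. Slc25a33, Slc25a37 and Slc25a20 are higher and Slc25a10, Slc25a22, Slc25a15 and Slc25a32 lower in every library of ferroptotic medium, while Slc25a51 has 1 library of ferroptotic medium, at 1563, close to the controls.

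Amino acid carriers showed 3 falls and 0 rises among 7 tested, and their median log2 fold change was -0.21. Slc25a22 (ENSMUSG00000019082, chromosome 7) brings glutamate into the matrix with a proton. It had 1588, 1525 and 1480 normalized counts with ferroptotic medium, against 2554, 2382 and 2449 with control medium, without overlap (log2 fold change -0.69, SE 0.05; limma adjusted p = 1.29e-05). The other glutamate carrier, Slc25a18, had 18 reads in ferroptotic medium and 49 in control medium, below the minimum. Slc25a15 (ENSMUSG00000031482, chromosome 8), the ornithine carrier that links the urea cycle and proline and polyamine synthesis to the matrix, had 299.9, 280.4 and 354 normalized counts with ferroptotic medium. With control medium it had 562, 457 and 490 normalized counts, all above those (log2 fold change -0.69, SE 0.12; limma adjusted p = 0.00188). Its relative Slc25a2 had 7 reads in each medium.

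The aspartate/glutamate carriers export aspartate in exchange for glutamate, and drive the malate-aspartate shuttle. Slc25a12 (aralar) had 4923 ± 129 normalized counts in ferroptotic medium and 5381 ± 134 in control medium (SD, n = 3 each), and fell by 0.13 on the log2 scale (SE 0.04; limma adjusted p = 0.0261). Quantile normalization gave an adjusted p of 0.110 for Slc25a12 by limma. Leaving out control replicate 2 or 3 or ferroptotic replicate 1 or 2 gave 0.0594 to 0.0952. Slc25a13 (citrin) had 2826, 3129 and 3091 normalized counts with ferroptotic medium, against 2706, 4002 and 4003 with control medium. Control replicate 1 was the lowest of the 6 libraries, and the gene was not called (-0.22, SE 0.17), although without that library its log2 fold change was -0.41 with a limma adjusted p of 0.00111. The glycine carrier of haem synthesis Slc25a38 (-0.21, SE 0.11), the branched-chain amino acid carrier Slc25a44 (-0.12, SE 0.15) and the basic amino acid carrier Slc25a29 (0.27, SE 0.44) were not called.

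Enzymes that use these amino acids included much larger changes. Of 9 genes of glutamate, ornithine and proline metabolism, 3 were higher and 3 lower. The mitochondrial arginase Arg2, which makes ornithine, had a log2 fold change of 2.59 (SE 0.09), and the proline synthesis genes Pycr1 and Aldh18a1 had 1.93 (SE 0.09) and 0.99 (SE 0.04). Oat, which consumes ornithine, was lower (-0.47), as was Glud1 (-0.15). Of 5 genes of branched-chain amino acid breakdown, 3 were higher and 1 lower, among them Dbt (0.50) and Bckdha (0.33) of the dehydrogenase complex and its inhibitory kinase Bckdk (-0.39).

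Slc25a20 (ENSMUSG00000032602, chromosome 9) exchanges acylcarnitines for carnitine and so admits long-chain fatty acids to oxidation. It had 1286, 1154 and 1108 normalized counts with ferroptotic medium, against 688, 763 and 715 with control medium. The lowest library of ferroptotic medium was well above the highest control (log2 fold change 0.71, SE 0.08; limma adjusted p = 0.000129). Slc25a45, a relative linked to carnitine synthesis, was not called (-0.02, SE 0.13). Of 7 other genes of the carnitine route, 1 was higher and 1 lower. Cpt1a, which makes acylcarnitines at the outer membrane, was lower (-0.69, SE 0.06), and Acadvl, which starts very-long-chain fatty acid oxidation, was higher (0.38, SE 0.05). Cpt2, the matrix partner of Slc25a20, was not called (-0.17, SE 0.11).

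The mitoferrins bring iron into the matrix, Slc25a37 chiefly in blood-forming cells and Slc25a28 in most others. Slc25a37 (ENSMUSG00000034248, chromosome 14) had 7218, 7367 and 6978 normalized counts with ferroptotic medium, against 4029, 4255 and 3995 with control medium. The groups were far apart (log2 fold change 0.81, SE 0.04; limma adjusted p = 9.27e-07). It shares 381 exon bases with Gm31748 and 92 with Gm27223, both on the other strand. Slc25a28 (ENSMUSG00000040414, chromosome 19) had 2503, 2252 and 1984 normalized counts with ferroptotic medium, against 1893, 2076 and 2098 with control medium. The groups overlapped and it was not called (0.15, SE 0.09; limma adjusted p = 0.215), although without ferroptotic replicate 3 its limma adjusted p was 0.0389 at a log2 fold change of 0.23. Of 11 genes of mitochondrial iron use, 2 were higher and 4 lower, and 1 was higher without control replicate 1, ferroptotic replicate 2 or ferroptotic replicate 3. Alas1, the first enzyme of haem synthesis, was at 0.46 (SE 0.06) and the transporter Abcb8 at -0.61 (SE 0.07).

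The glutathione carriers Slc25a39 and Slc25a40 did not pass the test. Slc25a39, which imports glutathione to the matrix, had 6092, 6276 and 6723 normalized counts with ferroptotic medium, against 6195, 6446 and 6313 with control medium (log2 fold change 0.01, SE 0.04; limma adjusted p = 0.888). Its relative Slc25a40 had 760, 843 and 882 normalized counts with ferroptotic medium, against 672, 838 and 814 with control medium (0.10, SE 0.10; limma adjusted p = 0.474). The groups overlapped for both carriers. Of 7 genes that make or use glutathione, 4 were higher and 1 lower, and the number higher was 2 without control replicate 3 or without ferroptotic replicate 3. Gclm, a subunit of the enzyme of the rate-limiting step of glutathione synthesis, was at 1.31 (SE 0.26; not called without control replicate 2 or 3), the reductase Gsr at 0.25 (SE 0.03) and the peroxidase Gpx1 at -1.22 (SE 0.03).

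Slc25a33 and Slc25a36 import pyrimidine nucleotides, the building blocks of mitochondrial DNA and RNA. Slc25a33 (ENSMUSG00000028982, chromosome 4) had 2916, 2740 and 2785 normalized counts with ferroptotic medium, against 1048, 980 and 1158 with control medium. Every library of ferroptotic medium was above every control by more than a factor of 2, and the change was the largest rise in the family (log2 fold change 1.41, SE 0.07; limma adjusted p = 8.48e-07; fold 2.65). In the authors' deposited table its FPKM was 31.9, 30.0 and 29.98 with ferroptotic medium, against 11.6, 10.8 and 12.7 with control medium. It shares 281 exon bases with Gm13068 on the other strand, which averaged 5.65 and 2.52 normalized counts in ferroptotic and control medium. Slc25a36 (ENSMUSG00000032449, chromosome 9) had 1917, 2059 and 2025 normalized counts with ferroptotic medium, against 1956, 1870 and 2000.0 with control medium, with overlap (log2 fold change 0.04, SE 0.05; limma adjusted p = 0.566). Of 9 genes of mitochondrial nucleotide supply and DNA copying, 2 were higher and 3 lower. The nucleotide kinase Cmpk2, also known as an interferon-induced gene, was at -1.86 (SE 0.05), the helicase Twnk at -0.57 (SE 0.05) and the ribonucleotide reductase subunit Rrm2b at 0.73 (SE 0.08).

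Cofactor carriers had 1 rise and 1 fall among 7 tested. Slc25a32 (ENSMUSG00000022299, chromosome 15), which brings folate and flavin into mitochondria, had 776, 902 and 909 normalized counts with ferroptotic medium, against 1275, 1195 and 1197 with control medium. All libraries of ferroptotic medium were lower (log2 fold change -0.51, SE 0.08; limma adjusted p = 0.000942). Of 6 enzymes of mitochondrial folate metabolism, 4 were higher and 0 lower. The formyltetrahydrofolate dehydrogenase Aldh1l2 was at 2.55 (SE 0.04), the dehydrogenase Mthfd2 at 1.04 (SE 0.04), the serine hydroxymethyltransferase Shmt2 at 0.43 (SE 0.03) and Mthfd1l at 0.36 (SE 0.03).

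Slc25a17 carries coenzyme A, FAD and NAD into peroxisomes. It had 2236 ± 15.1 normalized counts in ferroptotic medium and 2007 ± 61.8 in control medium (SD, n = 3 each), and rose by 0.16 (SE 0.05; limma adjusted p = 0.0257). Its limma adjusted p was 0.0522 to 0.0936 without control replicate 1 or 3 or ferroptotic replicate 2 or 3. Slc25a51, the NAD carrier of mammalian mitochondria, had 1563, 753 and 859 normalized counts with ferroptotic medium, against 1609, 1886 and 1799 with control medium. Ferroptotic replicate 1 stood just below the lowest control and the other 2 far below it. It was not called (log2 fold change -0.81, SE 0.30; limma adjusted p = 0.0924), and without ferroptotic replicate 1 its log2 fold change was -1.13 with a limma adjusted p of 6.21e-05. The coenzyme A carrier Slc25a42 (0.12), its relative Slc25a16 (0.04) and the S-adenosylmethionine carrier Slc25a26 (-0.09) were not called. Of 9 enzymes that make or use these cofactors, 1 was higher and 4 lower, with the coenzyme A synthesis genes Coasy at 0.53 and Pank1 at -0.62 and the transhydrogenase Nnt at -0.35.

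None of the remaining tested carriers passed. These were the uncoupling protein relatives Slc25a30 (-0.05) and Slc25a14 (-0.17), the outer membrane Slc25a46 (0.01) and 4 carriers without a settled substrate. Of those, Slc25a43 was at 0.14, Slc25a53 at -0.15, Slc25a35 at -0.50 and Slc25a47, known mainly from liver, at 0.59. The standard errors of Slc25a35 and Slc25a47 were 0.55 and 0.41. Slc25a47 had 139, 146 and 138 normalized counts with ferroptotic medium, against 126, 46.3 and 138 with control medium, and without control replicate 2, the lowest library, its log2 fold change was 0.10. Slc25a35 had 54.2, 90.0 and 18.8 normalized counts with ferroptotic medium, against 50.9, 82.4 and 64.6 with control medium, and without ferroptotic replicate 3 its log2 fold change was 0.11. Slc25a35 shares 1151 of its exon bases with Rangrf on the other strand, which averaged 211 and 323 normalized counts in ferroptotic and control medium. Those levels are above its own, and the part of Rangrf reads in its counts was not tested. Slc25a34 had 16 reads in ferroptotic medium and 11 in control medium, below the minimum. In all, 20 of the 24 uncalled carriers had a log2 fold change under 0.25 in size, and 4 of the 24 had a standard error above 0.25.

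Close relatives were compared within each library as the log2 ratio of their values, which does not depend on the scaling of the library. With 3 libraries against 3, the smallest 2-sided exact permutation p is 0.1, so no ratio could pass 0.05, and after Benjamini-Hochberg adjustment over the 8 ratios the smallest is 0.16. For Slc25a33 over Slc25a36 the log2 ratio was 0.60, 0.41 and 0.46 with ferroptotic medium, against -0.90, -0.93 and -0.79 with control medium. That difference was 1.37 (exact permutation p = 0.1). For Slc25a10 over Slc25a11 the log2 ratio was -2.44, -2.65 and -2.80 with ferroptotic medium, against -1.19, -1.19 and -1.33 with control medium, a difference of -1.39 (exact permutation p = 0.1). For Slc25a37 over Slc25a28 it was 1.53, 1.71 and 1.81 with ferroptotic medium, against 1.09, 1.03 and 0.93 with control medium, a difference of 0.67 (exact permutation p = 0.1).

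These 3 ratios, and those of Slc25a25 over Slc25a23 (difference 0.38) and Slc25a4 over Slc25a5 (difference 0.12), did not overlap between the media. The last of these came from -1.62, -1.64 and -1.61 with ferroptotic medium against -1.73, -1.75 and -1.75 with control medium, so the more abundant Slc25a5 was lower by more than Slc25a4 was. The ratios of Slc25a39 over Slc25a40 (difference -0.09, exact permutation p = 0.4), Slc25a12 over Slc25a13 (0.09, p = 0.6 by the same exact test) and Slc25a25 over Slc25a24 (0.17, p = 0.3 by the same exact test) overlapped.

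**Figure D3:**
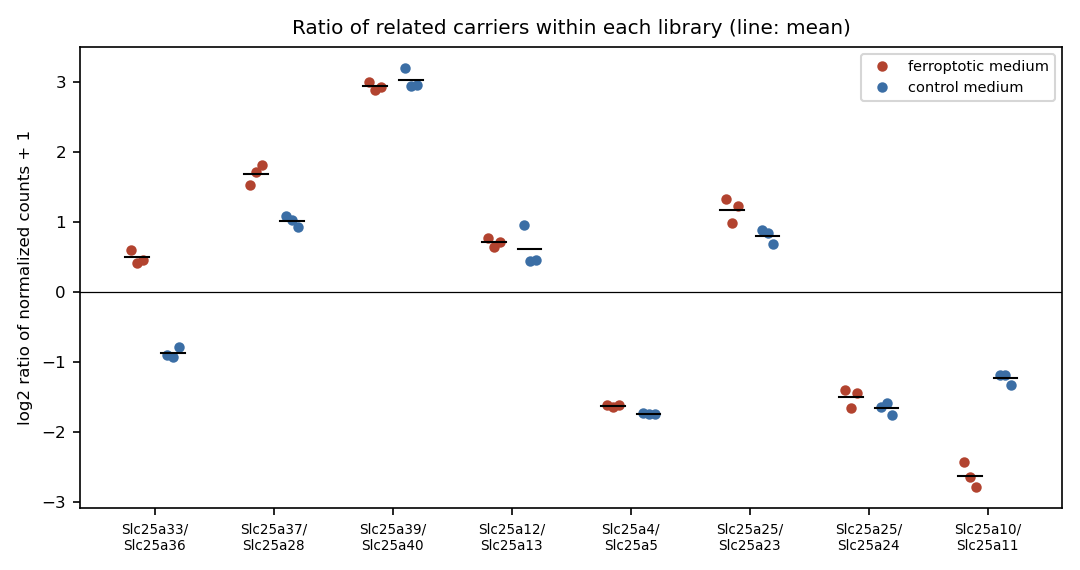
Log2 ratio of the values of 8 couples of related carriers in each library, with the mean as a line; ferroptotic medium (red) is left of control medium (blue). Slc25a33 over Slc25a36 lies at 0.41 to 0.60 in ferroptotic medium and at -0.93 to -0.79 in control medium.

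The start regions of the most changed carriers are shown so that a reader can see what lies before these genes. The 250 bases before the annotated start come from RefSeq on GRCm38.p6, the mouse build of that table, and 33 of the 43 carriers had such a window, 42 windows in all. Slc25a37, Slc25a32 and Slc25a51 had none. Capitals mark matches to the motifs searched. Shown are the largest rise, Slc25a33 (chr4:149774268-149774517, minus strand), the third largest, Slc25a20 (chr9:108661886-108662135, plus strand), and the largest fall, Slc25a10 (chr11:120491587-120491836, plus strand).
Slc25a33: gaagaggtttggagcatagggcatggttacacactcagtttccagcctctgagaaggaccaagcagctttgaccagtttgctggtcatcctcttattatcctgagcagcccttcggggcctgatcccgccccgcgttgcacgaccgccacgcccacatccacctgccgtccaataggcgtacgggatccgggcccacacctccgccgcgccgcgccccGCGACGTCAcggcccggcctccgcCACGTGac
Slc25a20: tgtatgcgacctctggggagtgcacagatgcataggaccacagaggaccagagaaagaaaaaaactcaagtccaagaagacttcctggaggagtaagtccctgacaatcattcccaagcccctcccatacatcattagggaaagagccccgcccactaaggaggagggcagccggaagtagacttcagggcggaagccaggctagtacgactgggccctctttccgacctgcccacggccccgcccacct
Slc25a10: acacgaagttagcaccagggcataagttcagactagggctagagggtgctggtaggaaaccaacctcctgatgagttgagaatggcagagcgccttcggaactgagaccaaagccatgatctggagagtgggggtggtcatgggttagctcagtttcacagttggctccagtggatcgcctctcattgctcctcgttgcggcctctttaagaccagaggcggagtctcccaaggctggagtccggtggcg
The Slc25a33 window holds TGACNNNGC, the core of the antioxidant response element, on the minus strand of the window at -32 to -24 from the start, and the E-box CACGTG at -8 to -3, which do not overlap each other. The windows of Slc25a20 and Slc25a10 hold no match, which says only that these letters are not there. Searched on both strands, TGACNNNGC lay before 7 of the 33 carriers (Slc25a3, Slc25a5, Slc25a14, Slc25a23, Slc25a25, Slc25a33 and Slc25a38). By window, it lay in 9 of the carriers' 42 and in 10.2% of all 32851. CACGTG lay before 6 carriers (Slc25a1, Slc25a13, Slc25a14, Slc25a15, Slc25a33 and Slc25a36). By window, it lay in 7 of the carriers' 42 and in 6.02% of all windows. TGATGNAAN, the core of the amino acid response element, lay before 0 carriers and in 3.44% of all windows. The median GC content was 57.8% in the carriers' windows and 52.4% in all windows, and a match in the letters is not shown to be a site.

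Genes that share the carriers' work were read from 15 lists with 120 tested genes. Of those 120, 26 were higher and 43 lower with ferroptotic medium, against 19.7% and 22.8% of all genes. As shares of the 120 both exceed those of all genes, the share lower by more. The lists were chosen with earlier results of these data known. Carrier precursors are imported by the TOM complex, small TIM chaperones and the TIM22 complex, and of these 13 genes 0 were higher and 6 lower. The number lower was 3 without control replicate 3, ferroptotic replicate 1 or ferroptotic replicate 2, and without ferroptotic replicate 2 Timm10b was called higher. The pore Tomm40 had a log2 fold change of -0.45 (SE 0.04), the receptor Tomm70a -0.24 (SE 0.04) and the chaperone Timm10 -0.32 (SE 0.07), and these 3 kept their calls in all 11 alternatives. The 7 uncalled import genes, including Timm22 (-0.10, SE 0.14), were not called. Of 10 ATP synthase subunits, 0 were higher and 6 lower, and the median log2 fold change was -0.12. Those with the smallest p-values, Atp5a1, Atp5g3 and Atp5g2, were at -0.25, -0.33 and -0.22. Slc25a3, Slc25a4 and Slc25a5 were at -0.22, -0.19 and -0.31. Atp5b (-0.08) lost its call in 5 of the 11 alternatives. The 4 uncalled subunits were Atp5h (0.07), Atp5g1 (0.03), Atp5d (-0.02) and Atp5f1 (-0.10). The counts of 0 for rises among amino acid carriers and ATP synthase subunits were also 0 at an unadjusted p under 0.05, by limma and by limma-voom. So were those for rises among import genes and falls among folate enzymes, but 1 import gene passed that unadjusted threshold with quantile normalization and 1 folate enzyme did without ferroptotic replicate 1. Of 3 tested relatives outside the Slc25a names, the uncoupling protein Ucp2 was lower (13291 ± 1193 normalized counts in ferroptotic medium and 17159 ± 129 in control medium, SD, n = 3 each; log2 fold change -0.37), and Mtch1 (-0.19, SE 0.20) and Mtch2 (-0.003, SE 0.04) were not called.

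Among 15 other channels and transporters of mitochondria, 4 were higher and 3 lower. The outer membrane channels differed in direction, with Vdac3 at 0.55 (SE 0.04) and Vdac1 and Vdac2 at -0.20 (SE 0.03) and -0.21 (SE 0.03). The inner membrane ion exchanger Ghitm was at 0.67 (SE 0.05), the calcium uniporter Mcu at 0.40 (SE 0.07), and the sideroflexins Sfxn3 at 0.27 and Sfxn1, a serine carrier, at -0.21. The pyruvate carrier subunits Mpc1 (0.12, SE 0.13) and Mpc2 (-0.09, SE 0.07) were not called.

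**Figure D4:**
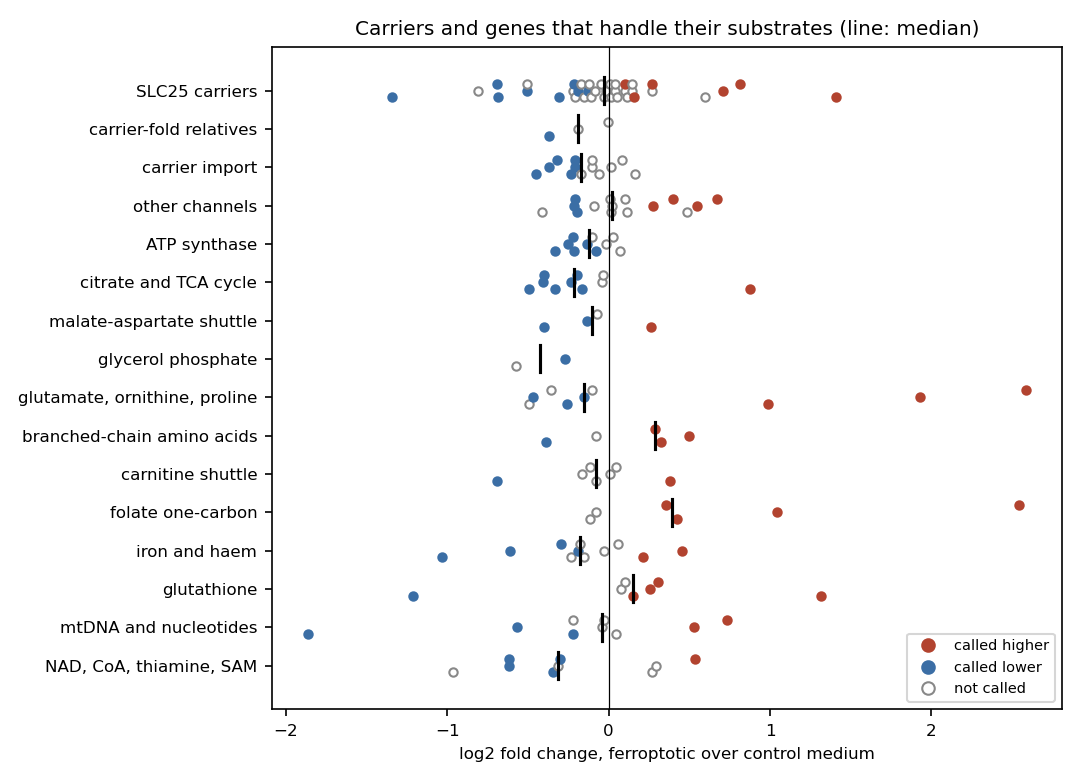
Log2 fold change (ferroptotic over control medium) of tested genes in the family and in 15 lists of partner genes, with the list median as a line; filled points passed an adjusted p of 0.05, red higher and blue lower. No filled point for carrier import or the ATP synthase lies above 0, and the largest rises are Arg2 at 2.59 and Aldh1l2 at 2.55.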

How the data were processed

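Per the labels' protocols, RNA was extracted from microglia and sequenced from libraries made with an mRNA kit. The tools named, per the submitters' processing notes, were DESeq2 1.18.1, R 3.4.3, HISAT2 2.1.0 and fastp 0.17.1. The sources used here do not give the build, the annotation, the counting tool or the use of strand. The authors deposited a log2 value per gene and library, which undone gives whole multiples of 1 step (100% of values within 0.01), so it is log2 of a normalized count plus 1. They also deposited FPKM values, log2 fold changes and p-values or FDR; their FDR was under 0.05 for 14 carriers, and all 14 were called here too.

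The log2 values were tested with limma 3.58.1 (trend and robust, 2-sided) in R 4.3.3, with medium as the single term, in genes that reached 10 normalized counts in 3 or more libraries, at a threshold of 0.05. At that minimum a value rests on about 10 reads per library. The fold changes understate those of low genes. Replicates differed by more than sampling noise (chi-square per degree of freedom 16.3 to 22.8). Alternatives were quantile normalization, a minimum of 1, a pseudocount of 5, limma-voom on the reads worked out, a replicate block and leaving out each library. Replicate numbers were not used as pairs.

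Members, partner lists, related couples and motifs were chosen with earlier results of these data known. Tested carriers are named, except that some genes counted here are not reported by name. Values per library are given for those called at a log2 fold change of 0.5 or more, the 5 most abundant per kilobase and their close relatives, and for Slc25a25, Slc25a13, Slc25a35, Slc25a47 and Slc25a51, which were added after their values were seen. Up to 3 called genes with the smallest p-values are named per partner list; others named there were chosen after their values were seen. Exon lengths and overlaps come from GENCODE M21 on GRCm38.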

Additional observations from a re-analysis of the deposited data

How the results depend on the processing

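Of the 14 called carriers, 10 kept their call and direction in all 11 alternatives: Slc25a33, Slc25a37, Slc25a20, Slc25a10, Slc25a15, Slc25a22, Slc25a32, Slc25a5, Slc25a3 and Slc25a4. The calls of Slc25a12, Slc25a17, Slc25a24 and Slc25a25 were lost in at least 2. The number of carriers higher and lower was 6 and 8 with a minimum of 1, a pseudocount of 5 or limma-voom, 6 and 7 with quantile normalization, and 4 and 8 with the replicate block, which ended the calls of Slc25a17 (adjusted p 0.0536 by limma) and Slc25a24 (0.0701). Deviations of same-numbered libraries correlated at 0.009, -0.020 and -0.039, so no shared replicate effect was seen. Such correlations cannot show whether the libraries were prepared as pairs. Leaving out a library gave 3 to 6 higher, with 3 without control replicate 3, and 7 to 9 lower; for the partner genes it gave 23 to 25 higher and 35 to 43 lower. The fits that leave out a library rest on fewer samples; beyond that the cause of a lost call was not tested. The carriers' median log2 fold change was 0.02 with quantile normalization, against 0.001 over all genes.

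Direction changed for uncalled carriers alone. Under quantile normalization Slc25a1 had a log2 fold change of 0.0208 and Slc25a45 of 0.0216. Leaving out a library gave log2 fold changes of -0.115 to 0.0750 for Slc25a1, -0.0289 to 0.109 for Slc25a16, -0.189 to 0.0336 for Slc25a26, -0.0828 to 0.00248 for Slc25a30, -0.990 to 0.109 for Slc25a35, -0.0309 to 0.0401 for Slc25a39, -0.214 to 0.00313 for Slc25a44, -0.142 to 0.0777 for Slc25a45, -0.0150 to 0.0401 for Slc25a46 and -0.324 to 0.0473 for Slc25a53. Low read numbers limit Slc25a29 and the 5 members below the minimum.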
